A study of Arabidopsis thaliana with 12 samples.

Results

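Small RNAs of dcl4-2 mutant seedlings grown without nitrogen were compared with those of wild-type seedlings grown with nitrogen, 3 libraries against 3, which are 6 of the 12 libraries of the study. The wild type was Col-0, the reference accession of Arabidopsis thaliana, on full MS medium (Col-0 MS). The mutant group carried dcl4-2, 1 mutant allele of the Dicer gene DCL4, and had grown on MS medium lacking nitrogen (dcl4-2 MS-N). All were whole seedlings, 10 days old, collected at 15:00, and the 3 libraries of a group were biological replicates. The labels do not say how many seedlings went into a library. The groups differed in genotype and in medium at once, so the other 6 libraries, Col-0 on MS-N and dcl4-2 on MS, served to split the combined change. The change from Col-0 MS to Col-0 MS-N is called the medium step, and the change from Col-0 MS-N to dcl4-2 MS-N the genotype step. Both steps add up to the combined change on the log2 scale. In whole seedlings, fewer cells of a type and less RNA per cell cannot be told apart.

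DCL4, a Dicer ribonuclease, makes 21-nt siRNAs out of long double-stranded RNA. Its main substrates are made by the RNA-dependent RNA polymerase RDR6 from transcripts that a microRNA has cleaved, and they include the trans-acting siRNA (tasiRNA) precursors and many pentatricopeptide repeat (PPR) genes. Where DCL4 is missing, DCL2 can cut such RNA into 22-nt siRNAs, a length that is loaded into AGO1 and can start further rounds of siRNA production. Nitrogen starvation is known to lower photosynthesis, to raise nitrate and ammonium uptake genes and anthocyanin synthesis, and to lower the phosphate- and sulfate-starvation microRNAs miR399 and miR395.

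The deposited tables held normalised read counts for 32420 loci at each length, as a mean per group, and rpm values (reads scaled to the library total) for 14 RNA classes in each library. Library values per locus were recovered from the means, as described under the processing. They amounted to 338879 to 347247 reads a library at 21 nt in Col-0 MS and 504506 to 626765 in dcl4-2 MS-N. At 22 nt they were 205866 to 232402 and 240930 to 302609 reads. At 21 nt the authors' means of MIR159a, MIR159b, MIR161 and MIR162b could not be split in every group. These 4 loci have no test, and they held 41.7% of the summed 21-nt value in Col-0 MS and 46.6% in dcl4-2 MS-N. Small-RNA reads at a gene do not measure its messenger. A gene said below to rise or fall is one whose small-RNA reads of that length did. Reads at DCL4 itself were few (mean 2.92 in Col-0 MS and 2.31 in dcl4-2 MS-N at 21 nt). The loss of 21-nt tasiRNA below is what marked the mutant libraries.

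The sequences that the results on microRNAs turn on are shown first, from RefSeq (build TAIR10.1), 5′ to 3′, with the seed (bases 2 to 8) in capitals. The first set is 3 members of the miR399 family and 1 of the miR395 family, whose loci fell, grouped by their shared seeds. They lie on the plus strand of chromosome 1 (miR399a, chr1:10227165-10227185), the minus strand of chromosome 1 (miR399b, chr1:23345387-23345407), the plus strand of chromosome 2 (miR399f, chr2:14445084-14445104) and the plus strand of chromosome 1 (miR395b, chr1:9364540-9364560), each within its own MIR gene.
miR399a: tGCCAAAGgagatttgccctg
miR399b: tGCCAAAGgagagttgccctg
miR399f: tGCCAAAGgagatttgcccgg
miR395b: cTGAAGTGtttggggggactc
The second set is 3 microRNAs whose loci rose. The miR845b gene lies on the minus strand of chromosome 4 (chr4:12214086-12214107), that of miR403-3p on the plus strand of chromosome 2 (chr2:19415154-19415174) and that of miR169f-5p on the minus strand of chromosome 3 (chr3:4805799-4805819).
miR845b: tCGCTCTGataccaaattgatg
miR403-3p: tTAGATTCacgcacaaactcg
miR169f-5p: tGAGCCAAggatgacttgccg
The mature miR845b is 22 nt long and the others are 21 nt long. The miR169f-5p sequence is shared by 4 loci, MIR169d and MIR169g among them, so a read of it cannot be assigned to 1 of them by its letters. The loci differed all the same. At 21 nt the authors' log2 change was 0.60 at MIR169d and 0.57 at MIR169g, while MIR169f rose by 3.06 here. Which reads were counted at each locus is not given, so the gain at MIR169f need not be of this sequence. The third set is the best ungapped match of 3 microRNAs in the longest messenger of a gene whose 22-nt reads rose, with the bases opposite the seed in capitals.
AGO2, for miR403-3p: ggagtttgtgcgtGAATCTAa
NF-YA2, for miR169f-5p: aggcaaatcatctTTGGCTCa
PHB, for miR166a-3p: ttgggatgaagccTGGTCCGg
The AGO2 site had 1 mismatch, NF-YA2 had 3 and PHB had 4. As few mismatches were found in 1, 4 and 11 of 31346 messengers, which is 0.00319%, 0.0128% and 0.0351% of them. A match describes the letters and does not show cleavage.

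The first question was how the RNA classes differed. Reads of the tasiRNA class fell at 21 nt and rose at 22 nt. At 21 nt the 3 Col-0 MS libraries held 24358, 30874 and 23904 rpm and the dcl4-2 MS-N libraries 2521, 2638 and 2866, so the groups did not overlap and the mutant group was 9.86-fold lower (log2 change -3.29 ± 0.12 SE, limma adjusted p = 1.8e-10). At 22 nt they held 985, 1177 and 901 against 12390, 12018 and 13183, which was 12.3-fold higher (log2 3.63 ± 0.09, limma adjusted p = 5.3e-12). The share of tasiRNA reads that were 22 nt long went from 3.73% ± 0.14 (SD, n = 3) to 82.4% ± 0.6. Whether both lengths were scaled to the same library total is not given in the sources used here, which bears on this share. The exon class, which overlaps the tasiRNA class, behaved likewise, with 35236 ± 4157 (SD, n = 3) falling to 12486 ± 638 rpm at 21 nt and 8479 ± 347 rising to 26356 ± 878 at 22 nt.

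In all, 23 of the 28 class values passed an adjusted p of 0.05 (82.1%), 18 higher and 5 lower, and the libraries of the groups did not overlap for 89.3% of the values. Departures from additivity passed for 53.6%. The rpm summed over the 13 classes other than tasiRNA itself rose, from 177337 to 283658 at 21 nt and from 86349 to 130538 at 22 nt. Scaled to the sum without microRNA and tasiRNA, 18 class values were called, 13 higher and 5 lower. The smaller rises thus depend on the scale. MicroRNA reads rose 2.47-fold at 21 nt, from 85653 ± 8204 to 211199 ± 9553, and 2.15-fold at 22 nt. The small nucleolar RNA class (snoRNA, guides of ribosomal RNA modification) rose 4.18-fold at 21 nt and 3.96-fold at 22 nt, and the spliceosomal snRNA class 3.6-fold and 4.01-fold. Fragments of such stable RNAs are a usual part of small-RNA libraries, and whether RNA quality differed between the groups was not tested. Reads of 3′ UTRs rose 2.38-fold at 22 nt. Transposable-element reads fell at 21 nt by 0.58 on the log2 scale, a call lost without Col-0 MS replicate 2 or dcl4-2 MS-N replicate 1, and gave -0.05 ± 0.14 at 22 nt. At 21 nt the calls of promoters and intergenic reads were each lost without 1 of 4 replicates, and that of tRNA without Col-0 MS replicate 2 or dcl4-2 MS-N replicate 3. At 22 nt that of rRNA was lost without Col-0 MS replicate 2 or dcl4-2 MS-N replicate 1 or 3. The classes not called were rRNA at 21 nt and transposable elements, tRNA, promoters and intergenic reads at 22 nt.

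**Figure D1:**
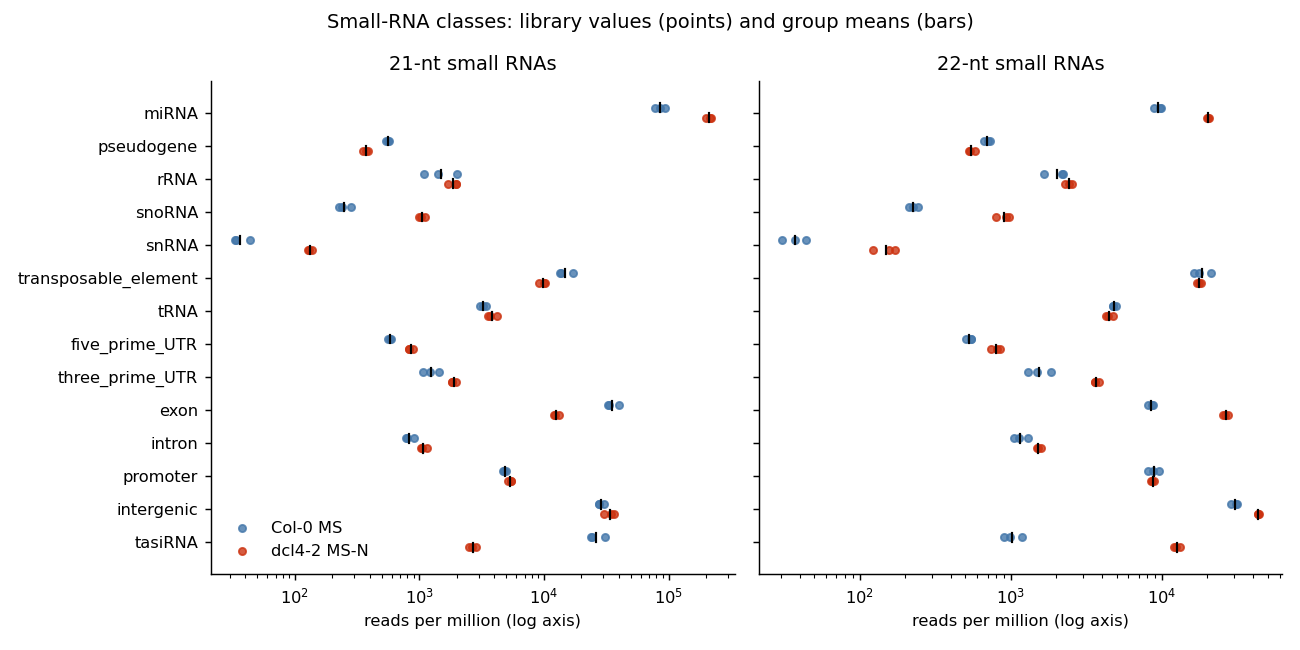
Rpm values (log axis) of the 14 RNA classes at 21 nt (left) and 22 nt (right); points are the 3 libraries of a group and black bars the group means. The tasiRNA class was 9.86-fold lower at 21 nt and 12.3-fold higher at 22 nt in dcl4-2 MS-N than in Col-0 MS.

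The classes differed in which step held their change. The gain in microRNA reads at 21 nt was split into 0.77 for the medium step and 0.54 for the genotype step on the log2 scale. For snRNA at 21 nt nearly all of the change of 1.86 lay in the medium step (1.55). For 21-nt tasiRNA the steps had opposite signs, 0.80 for the medium and -4.09 for the genotype, as did those of 21-nt exon reads (0.64 and -2.13). At 22 nt both steps raised tasiRNA reads, by 1.49 and 2.13, and the 22-nt exon gain of 1.64 lay mainly in the genotype step (1.41).

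At the level of loci, 2232 of 19415 loci tested were called at 21 nt (11.5%), of which 1198 rose (6.17%) and 1034 fell (5.33%). At 22 nt, 2731 of 20160 were called (13.5%), 1599 higher (7.93%) and 1132 lower (5.62%). The median log2 change over all loci tested was 0.16 at 21 nt and 0.26 at 22 nt on the authors' scale. It became -0.0038 and 0.02 after TMM scaling, and -0.73 and -0.43 when the microRNA reads were set to a common sum, so the balance of higher and lower loci depends on the scale. At 21 nt that sum leaves out MIR159a, MIR159b, MIR161 and MIR162b, which have no library values. Their deposited means were 1.93-fold (MIR161) to 3.42-fold (MIR159b) higher in dcl4-2 MS-N than in Col-0 MS. Protein-coding genes were 77.5% of the loci tested at 21 nt and 77.4% at 22 nt, and they gave 88.9% and 88.2% of the higher calls. Pseudogenes were 18.3% and 18.2% of the loci tested and gave 19.4% of the lower calls at 21 nt, near their share, and 31.0% at 22 nt. The authors' deposited table called 1029 of 10341 loci at 21 nt (9.95%) and 1627 of 11960 at 22 nt (13.6%), and 1019 and 1609 of those were called here in the same direction, which is 99% and 98.9% of the deposited calls and 45.7% and 58.9% of the calls made here.

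Libraries of the groups did not overlap for 26.2% of all loci tested at 21 nt and for 28.3% at 22 nt, which is the background for the separations named below. The background for the list counts below is 6.17% higher and 5.33% lower at 21 nt, and 7.93% and 5.62% at 22 nt.

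Over all loci, the medium step alone called 6.09% at 21 nt (2.18% higher and 3.9% lower) and 6.39% at 22 nt (1.83% higher and 4.56% lower). The genotype step called 4.7% (2.47% higher and 2.24% lower) and 6.37% (4.24% higher and 2.13% lower). The lower calls of the combined change went mostly with the medium. Of the 1034 loci lower at 21 nt, 442 passed the threshold in the medium step only, 174 in the genotype step only, 81 in both and 337 in neither. Of the 1132 lower at 22 nt, 498 passed in the medium step only and 191 in the genotype step only. Among the 1599 higher at 22 nt the order was the other way, with 175 in the medium step only, 350 in the genotype step only, 63 in both and 1011 in neither. Many loci were thus called for the sum of both steps with neither step passing alone.

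The nitrate reductase gene NIA2, whose enzyme reduces nitrate to nitrite in the first step of nitrate assimilation, had the highest 22-nt change. Its 22-nt reads were 61.4, 94.7 and 57.5 in the Col-0 MS libraries and 55790, 40991 and 40422 in the dcl4-2 MS-N libraries. Every mutant library without nitrogen lay far above every wild-type library with it, 642-fold on average (log2 9.33 ± 0.26, limma adjusted p = 3.9e-30). Neither single change came near this level, since the mean was 108 in Col-0 MS-N and 166 in dcl4-2 MS. The combined change exceeded the sum of the medium change in Col-0 and the genotype change on MS by 7.77 ± 0.37 on the log2 scale (limma adjusted p = 1.7e-20). The 21-nt reads of NIA2 followed, from 56.8, 56.9 and 65.1 to 10614, 7258 and 7277 (141-fold, log2 7.09 ± 0.26, limma adjusted p = 7.6e-30), with an excess over additivity of 7.22.

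The paralog NIA1 had another pattern. Its 22-nt reads rose from 24.6, 54.0 and 35.5 to 462, 748 and 581, without overlap (15.7-fold, log2 3.98 ± 0.36, limma adjusted p = 4.9e-12). They were higher still in dcl4-2 on MS (mean 1166), and the departure from additivity was -1.49 (adjusted p = 0.11). At 21 nt NIA1 rose 5.45-fold, a call that was lost when microRNA reads were set to a common sum (adjusted p = 0.11).

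SMXL3, SMXL4 and SMXL5 encode related proteins needed to form the phloem. SMXL4 had 22-nt values of 0.878, 2.04 and 1.05 in Col-0 MS and 995, 307 and 575 in dcl4-2 MS-N, a 474-fold gain without overlap (log2 7.95 ± 0.40, limma adjusted p = 8.3e-20). The mutant libraries spread over more than a factor of 3. Reads had already risen in dcl4-2 on MS (mean 182), and the excess over additivity of 1.49 did not pass (adjusted p = 0.16). SMXL5 at 22 nt went from 7.90, 5.09 and 3.14 to 61.4, 19.0 and 56.8 (8.51-fold, log2 2.78 ± 0.57, limma adjusted p = 0.00043) and exceeded additivity by 3.52 (adjusted p = 0.011), which did not pass without Col-0 MS library 1. Its 21-nt reads did not pass (log2 -0.64 ± 0.62, adjusted p = 0.56). SMXL3 was called at both lengths from few reads, with 22-nt values of 0.878, 0 and 1.05 against 4.46, 7.14 and 11.1 (limma adjusted p = 0.0095), and lost both calls without single libraries (Col-0 MS library 2 at 22 nt, Col-0 MS or dcl4-2 MS-N library 1 at 21 nt). NIA1, NIA2 and SMXL3 to SMXL5 are the genes that the study is known for, so their direction here is not independent evidence.

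**Figure D2:**
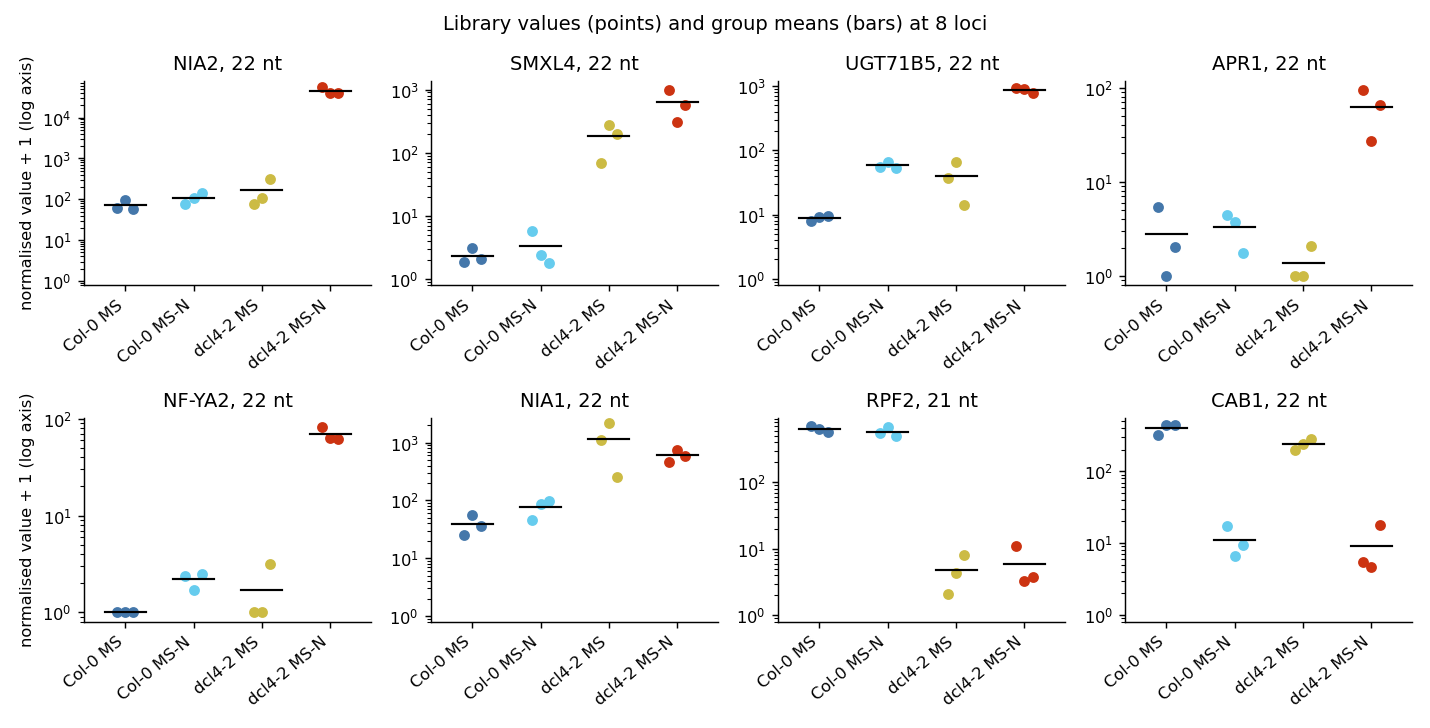
Normalised value + 1 (log axis) of 8 loci in all 4 groups; points are libraries and bars group means. NIA2 at 22 nt has means of 71.2, 108 and 166 in 3 groups and 45734 in dcl4-2 MS-N, while CAB1 at 22 nt is low in both groups without nitrogen and RPF2 at 21 nt in both mutant groups.

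The PPR genes are the classic DCL4-dependent siRNA sources, with siRNA production started by miR161 and by tasiRNAs. Of 27 PPR loci tested at 21 nt, 21 fell and none rose (median log2 -3.64, against 0.16 for all loci). RPF2, which encodes a PPR protein of mitochondrial RNA processing, went from 702, 628 and 578 to 9.89, 2.31 and 2.75 (128-fold lower, log2 -6.95 ± 0.35, limma adjusted p = 4.9e-24). RPF3, another such gene, went from 2263, 1865 and 1912 to 26.4, 12.7 and 28.9 (88.9-fold lower, limma adjusted p = 2.4e-27). Neither gene's libraries overlapped. AT1G63400 fell 111-fold, AT1G63070 94.7-fold, AT1G62914 93.4-fold and AT1G62910 89.3-fold. These genes are close paralogs, how shared reads were counted is not given in the sources used here, and they are not independent of each other.

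The change of the PPR loci lay in the genotype step. In Col-0, none of the 27 passed in the medium step (median 0.15), while 22 were lower in the genotype step (median -4.11). Summed over the list, the 21-nt value was 15960 in Col-0 MS, 16045 in Col-0 MS-N, 196 in dcl4-2 MS and 366 in dcl4-2 MS-N. At 22 nt the list did not gain what it lost at 21 nt, with 13 of 26 loci lower and 6 higher (median -1.03). AT1G63400 fell from 600, 546 and 581 to 45.7, 69.0 and 47.1 (10.7-fold lower, log2 -3.42 ± 0.21, limma adjusted p = 3.1e-17). AT1G06580 was among the 6 that rose, from 7.02, 0 and 5.23 to 24.5, 32.1 and 29.1 (7.0-fold, log2 3.0, limma adjusted p = 5.2e-06; log2 2.06 without Col-0 MS library 2).

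Disease-resistance genes of the NBS-LRR class are another source of secondary siRNAs. Their calls were mostly lower at 21 nt and all higher at 22 nt. At 21 nt 7 of 14 loci were not called, and at 22 nt 10. At 21 nt 6 of 14 fell and 1 rose (median -0.96), and at 22 nt 4 rose and none fell (median 1.09), though under TMM scaling no locus rose at 21 nt and 1 fell at 22 nt. Over all loci 5.33% fell and 6.17% rose at 21 nt, so the 1 higher was near that share, and 7.93% rose at 22 nt. AT5G43740 went from 595, 568 and 521 to 85.7, 62.5 and 102 at 21 nt (6.74-fold lower, log2 -2.76 ± 0.25, limma adjusted p = 1.6e-13). At 22 nt the same locus went from 83.4, 87.6 and 107 to 326, 305 and 421 (3.79-fold higher, log2 1.9 ± 0.19, limma adjusted p = 9.2e-11). The libraries did not overlap at either length. AT5G43730 rose 11.2-fold at 22 nt and fell 2.29-fold at 21 nt. In the medium step 3 loci of the list were lower at 21 nt and none higher (median -0.70). In the genotype step 2 were lower and 1 was higher (median -0.26). The summed 21-nt value was 809 in Col-0 MS, 385 in Col-0 MS-N, 291 in dcl4-2 MS and 239 in dcl4-2 MS-N. AT5G43740 already had a 21-nt mean of 162 in Col-0 MS-N. At 22 nt 3 loci were lower in the medium step and 5 higher in the genotype step.

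The remaining listed targets of phased and trans-acting siRNAs gained 22-nt reads, with 9 of 13 higher and none lower (median 2.39). At 21 nt 3 of 12 rose and 2 fell with a median of -0.38, and under TMM scaling 3 rose and 5 fell, while 1 fell without dcl4-2 MS-N library 2. ARF4, an auxin response factor and target of the TAS3 tasiRNAs, went from 2.63, 5.09 and 7.32 to 51.3, 65.4 and 56.8 at 22 nt (11.5-fold, log2 3.36 ± 0.34, limma adjusted p = 1.1e-10), and its 21-nt reads fell by 1.21 on the log2 scale. The auxin receptor gene AFB2, a target of miR393, rose 6.91-fold at 22 nt and gave -0.72 ± 0.32 at 21 nt (adjusted p = 0.14). AFB3, its paralog, fell 5.89-fold at 21 nt. No tasiRNA precursor gene was among the loci tested, so those precursors are seen only through the class values.

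Of the genes of the silencing machinery, 1 of 17 rose at 21 nt (AGO2) and 3 of 18 at 22 nt (AGO1, AGO2 and DCL1), with none lower. Over all loci 6.17% rose at 21 nt and 7.93% at 22 nt, so the 21-nt count was near the share of all loci. At 21 nt 2 rose without dcl4-2 MS-N library 1 or 3, and 1 was lower under TMM scaling and 2 with microRNA reads set to a common sum. AGO2, an Argonaute of antiviral defence, had 22-nt values of 9.66, 3.06 and 7.32 in Col-0 MS and 211, 144 and 169 in dcl4-2 MS-N (26.2-fold, log2 4.61 ± 0.31, limma adjusted p = 9.2e-16). At 21 nt it went from 348, 413 and 380 to 1890, 1983 and 1925 (5.08-fold), without overlap at either length. MIR403, the gene of the microRNA whose AGO2 site is printed above, rose alongside at 21 nt, from 9979, 9065 and 9758 to 49647, 55542 and 46681 (5.27-fold, log2 2.4 ± 0.17, limma adjusted p = 8.0e-17). AGO1, the main Argonaute of microRNAs and a target of miR168, rose 5.49-fold at 22 nt, and DCL1, the Dicer of microRNA biogenesis, 5.76-fold. At 21 nt AGO1 gave -0.85 ± 0.30 (adjusted p = 0.052) and DCL1 -0.54 ± 0.40 (adjusted p = 0.42). Strand is not given in the sources used here, so whether sense and antisense reads of these genes were counted together is not known.

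Targets of conserved microRNAs also gained 22-nt reads. Of 42 tested, 20 rose and none fell at 22 nt (median 1.56, against 0.26 for all loci). Among all loci 7.93% rose at 22 nt and 6.17% at 21 nt. At 21 nt 10 of 44 rose and none fell, but 4 were higher and 7 lower with microRNA reads set to a common sum, under TMM scaling 9 rose and 2 fell, and 1 fell without Col-0 MS library 1. At 22 nt 10 members rose in the genotype step and 2 in the medium step. PHB, an HD-ZIP III factor that sets the upper side of the leaf and is cut by miR166, went from 3.51, 2.04 and 1.05 to 79.2, 72.6 and 81.8 (35.4-fold, log2 4.70 ± 0.42, limma adjusted p = 4.1e-12). Its mean was 89.9 in dcl4-2 MS and 2.53 in Col-0 MS-N, so both mutant groups were high. PHV and REV, HD-ZIP III genes of the same family, were called at 22 nt as well (log2 4.22 ± 0.47, or 4.89 without Col-0 MS library 2, and 4.01 ± 0.51).

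NF-YA2, a CCAAT-box binding subunit and target of miR169, was high in dcl4-2 MS-N and near 0 in the other 3 groups. Its 22-nt reads were 0 in all 3 Col-0 MS libraries and 81.4, 63.0 and 61.0 in dcl4-2 MS-N, at least 69.8-fold higher (against 3 reads over the group). The mean was 1.19 in Col-0 MS-N and 0.714 in dcl4-2 MS. The combined change exceeded additivity by 4.44 (limma adjusted p = 0.00065), a departure that did not pass with a pseudocount of 0.1 (adjusted p = 0.28). AP2, a flower and seed regulator targeted by miR172, was called at both lengths from values below 7.

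Both sulfate assimilation genes called at 22 nt rose. APR1, an APS reductase, had 22-nt values of 4.39, 0 and 1.05 in Col-0 MS and 92.6, 26.2 and 63.7 in dcl4-2 MS-N (33.6-fold, log2 4.62 ± 0.58, limma adjusted p = 4.8e-08; log2 5.26 without Col-0 MS library 1). Its mean stayed at 2.33 in Col-0 MS-N and 0.357 in dcl4-2 MS, and the excess over additivity was 4.95 (adjusted p = 0.00029; 4.32 without Col-0 MS library 1). APS4, an ATP sulfurylase and miR395 target, rose 5.31-fold, a call lost without Col-0 MS library 1. MYB28, a regulator of aliphatic glucosinolate synthesis, was the third gene of this list of 12 that rose at 22 nt, from 0.878, 3.06 and 6.27 to 92.6, 63.0 and 73.5 (22.4-fold). Unlike APR1 it was highest in dcl4-2 on MS (mean 307), and it fell short of additivity by 2.2 on the log2 scale (adjusted p = 0.019), which did not pass without Col-0 MS library 1. At 21 nt its call (log2 1.36) did not hold in most other settings and had the opposite sign with microRNA reads set to a common sum.

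Small-RNA reads of genes of nitrogen uptake and assimilation changed in both directions. Of the nitrate list, 6 of 18 rose and 4 fell at 21 nt, and 5 rose and 2 fell at 22 nt (1 without Col-0 MS library 3 or dcl4-2 MS-N library 1), but at 21 nt 4 were higher and 5 lower with microRNA reads set to a common sum. Over all loci 6.17% rose and 5.33% fell at 21 nt, and 7.93% and 5.62% at 22 nt. The lower count at 22 nt rests on few loci beside that share. NRT2:1, the main high-affinity nitrate transporter, had no read in any Col-0 MS library and 22.0, 25.5 and 31.6 in dcl4-2 MS-N at 21 nt, at least 28-fold higher. WR3, its partner protein, rose at least 13.1-fold. Both were already called in the medium step (log2 4.14 and 2.52). LBD37 and LBD39, nitrate-induced repressors, fell, LBD39 from 10.3, 6.53 and 13.4 to 0 in all 3 libraries at 21 nt (at least 8.34-fold lower).

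Of the ammonium and assimilation list, 7 of 20 rose and 5 fell at 21 nt, and 8 of 21 rose and 4 fell at 22 nt, whereas 4 rose and 7 fell at each length with microRNA reads set to a common sum. All loci gave 6.17% higher and 5.33% lower at 21 nt, and 7.93% and 5.62% at 22 nt. Without Col-0 MS library 1, 3 of the list fell at 21 nt, and without dcl4-2 MS-N library 3, 5 rose at 22 nt. In the medium step 4 rose and 7 fell at 22 nt, and in the genotype step 5 rose and none fell. Their summed 22-nt value was 398 in Col-0 MS, 150 in Col-0 MS-N and 389 in dcl4-2 MS-N. GSR 1 (AT5G37600), a cytosolic glutamine synthetase, went from 0.878, 1.02 and 3.14 to 91.5, 95.2 and 97.0 at 22 nt (56.4-fold, log2 5.25 ± 0.40, limma adjusted p = 5.4e-14). ASN1, the asparagine synthetase of dark-grown tissue, moved the other way, from 79.2, 136 and 146 to 4.39, 1.16 and 0 at 21 nt (65.0-fold lower, log2 -5.69 ± 0.40, limma adjusted p = 2.1e-17; log2 -6.32 to -5.1 without 1 of the mutant libraries). The libraries of neither gene overlapped, and both were called in the medium step. DUR3, the urea transporter, and the ammonium transporter gene AMT1;3 rose at 22 nt at least 38.9-fold and 16.3-fold.

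Small-RNA reads of nuclear photosynthesis genes fell together, at 23 of 23 genes at both lengths (median -4.07 at 21 nt and -3.67 at 22 nt). The chlorophyll-binding protein gene CAB1 went from 316, 445 and 441 to 4.46, 3.57 and 16.6 at 22 nt (48.8-fold lower, log2 -5.71 ± 0.33, limma adjusted p = 5.0e-18; log2 -6.31 without dcl4-2 MS-N library 3). CA1, a carbonic anhydrase, went from 47.4, 49.9 and 44.9 to no read, at least 38.5-fold lower. The medium step alone called all 23 lower at both lengths (median -4.58 and -5.08). The genotype step went the other way for part of them, with 6 higher and 2 lower at 21 nt and 10 higher and none lower at 22 nt. CAB genes are close copies of each other and may share reads, since the rule for reads that match several places is not given in the sources used here. Other loci among the most lowered were BGAL1, a beta-galactosidase, and DELTA-TIP, a vacuolar aquaporin.

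Small-RNA reads of flavonoid and anthocyanin genes rose. Against 6.17% and 7.93% of all loci, 5 of 11 were higher at 21 nt and 8 of 13 at 22 nt, with none lower. At 21 nt 3 rose without Col-0 MS library 1 or 3 and 3 with microRNA reads set to a common sum. TT4, the chalcone synthase that opens the pathway, went from 0.860, 0 and 0 to 26.4, 24.3 and 23.4 at 21 nt (log2 4.38 ± 0.54, limma adjusted p = 5.6e-09). PAL1, which supplies its precursor, rose 10.7-fold at 21 nt (log2 3.7, and 2.76 to 4.45 without 1 library) and 8.91-fold at 22 nt. The MYB activator PAP1, a target of miR828 and of TAS4 tasiRNAs, had 21-nt values of 0, 7.46 and 0 against 20.9, 24.3 and 16.5 (log2 3.39, and 4.41 without Col-0 MS library 2), but its mean was 71.4 in Col-0 MS-N, so the genotype step was negative (log2 -1.76, adjusted p = 0.038). AT1G03940 went the same way at 21 nt, with 49.5 in Col-0 MS-N and 4.89 in dcl4-2 MS-N.

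**Figure D3:**
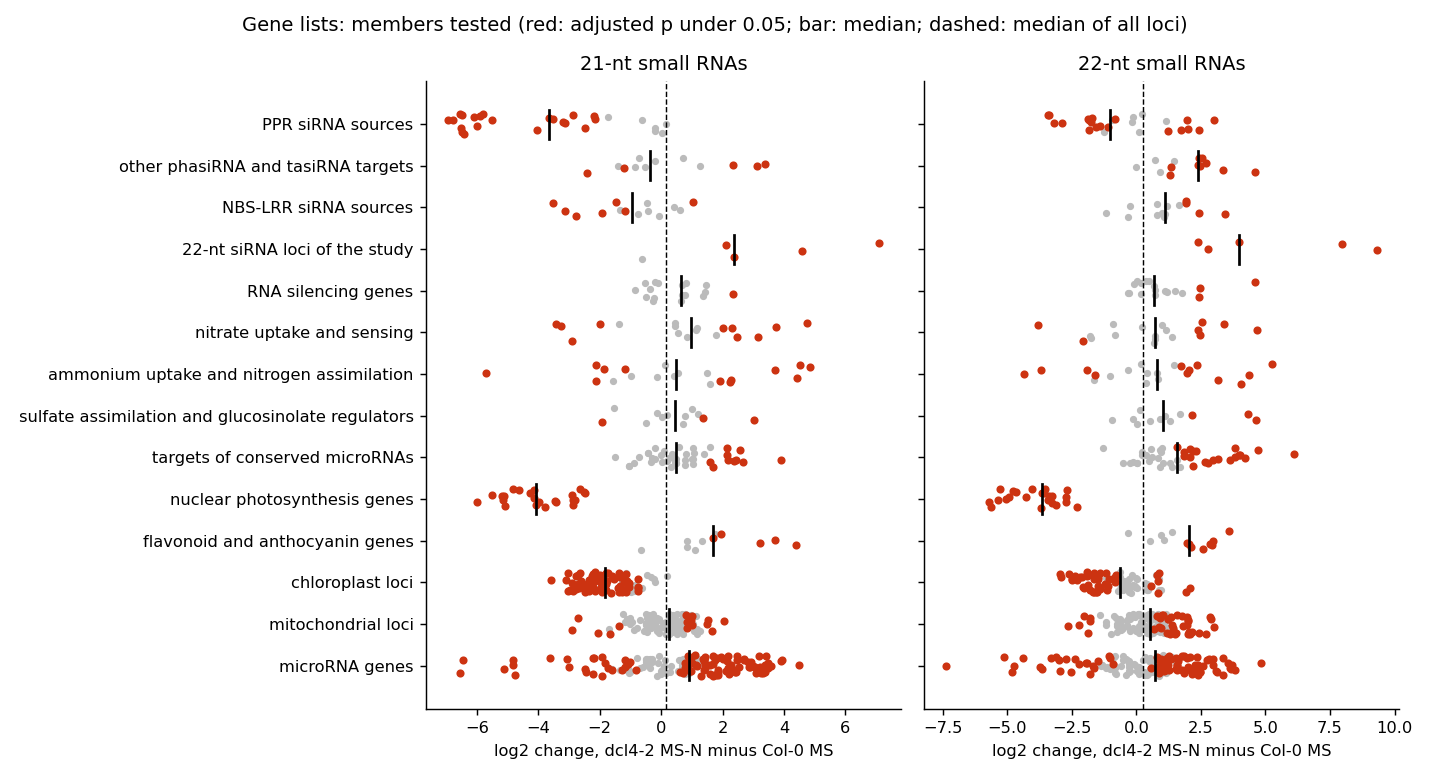
Log2 change (dcl4-2 MS-N minus Col-0 MS) of the members tested of each gene list at 21 nt (left) and 22 nt (right); red points have an adjusted p under 0.05, bars are list medians and the dashed line is the median of all loci. PPR loci lie to the left at 21 nt (21 of 27 lower) and photosynthesis genes at both lengths (23 of 23 lower). With microRNA reads set to a common sum the medians of microRNA genes (both lengths), mitochondrial loci (both lengths) and, at 21 nt, of microRNA targets, silencing, ammonium and sulfate genes turn negative.

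Other loci that rose most were named by their fold alone. The glycosyltransferase gene UGT71B5 went from 7.02, 8.15 and 8.36 to 946, 903 and 773 at 22 nt (111-fold, log2 6.63 ± 0.30, limma adjusted p = 2.0e-21), with 57.2 in Col-0 MS-N and 38.2 in dcl4-2 MS, 2.03 above additivity. Its 21-nt reads rose 7.94-fold and did so in the medium step (log2 2.97), with a genotype step of -0.02. DOX1, an alpha-dioxygenase of oxylipin metabolism, ICL, the isocitrate lyase of the glyoxylate cycle, UGT72E2, a monolignol glucosyltransferase, LOX1, a lipoxygenase, and THAS1, the thalianol synthase, were all called in the medium step. UGT72E2 had no 22-nt read in Col-0 MS and 34.6, 57.1 and 45.7 in dcl4-2 MS-N, at least 46.7-fold higher.

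Loci of the chloroplast genome lost reads, 76 of 88 at 21 nt with none higher (median -1.85). At 22 nt 37 fell and 7 rose (median -0.64), and 2 rose under TMM scaling, while 71 fell and 2 rose with microRNA reads set to a common sum. The 7 of 88 higher were near the 7.93% of all loci. The medium step was lower for 75 of 88 at 22 nt, and the genotype step was higher for 71 of 88 (median 1.36). The locus ATCG00280 went from 816, 1128 and 1097 to 114, 114 and 169 at 22 nt (7.66-fold lower, log2 -2.94 ± 0.19, limma adjusted p = 7.8e-17), and its mean in Col-0 MS-N was lower still, 53.2. Of the mitochondrial loci, 10 of 116 were higher and 5 lower at 21 nt, near the 6.17% and 5.33% of all loci. At that length 3 were higher and 3 lower without Col-0 MS library 1, while 5 and 6 were higher without dcl4-2 MS-N library 2 and 3. At 22 nt 32 of 118 were higher and 6 lower, against 7.93% and 5.62% of all loci, and 34 were higher in the genotype step. Their summed 22-nt value went from 2133 ± 160 to 4181 ± 268 (SD, n = 3). The balance turned under TMM scaling at 21 nt (3 higher, 7 lower) and with microRNA reads set to a common sum (0 higher and 37 lower at 21 nt, 10 higher and 17 lower at 22 nt). Copies in the chloroplast inverted repeat may share reads.

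MicroRNA genes were called more often than other loci, with 77 higher and 26 lower among 148 at 21 nt, and 58 higher and 24 lower among 144 at 22 nt. All loci gave 6.17% higher and 5.33% lower at 21 nt, and 7.93% and 5.62% at 22 nt. When the reads of microRNA genes were set to a common sum, their balance turned to 29 higher and 52 lower at 21 nt, and to 27 higher and 44 lower at 22 nt. Directions of single families below are on the authors' scale. The phosphate-starvation family MIR399 fell at every locus tested, 5 of 5 at 21 nt and 6 of 6 at 22 nt, under all 3 scalings. MIR399a at 22 nt went from 2809, 3483 and 2328 to 32.3, 21.4 and 5.54 (145-fold lower, log2 -7.38 ± 0.45, limma adjusted p = 3.2e-17; log2 -6.7 without dcl4-2 MS-N library 3). MIR399b at 21 nt went from 578, 728 and 921 to 6.59, 6.94 and 6.88 (109-fold lower, limma adjusted p = 1.6e-26). The mature miR399a printed above is 21 nt long, yet its locus had most of its reads in the 22-nt table, a comparison across tables that were normalised separately. MIR399b and MIR399c carry the same mature sequence and their reads cannot be told apart.

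The fall of MIR399 and of the sulfate-starvation family MIR395 was a medium step. MIR399a dropped by 8.21 on the log2 scale in that step and changed by 0.82 in the genotype step (adjusted p = 0.28). All 6 MIR395 loci fell at 21 nt, MIR395b from 286, 193 and 170 to 5.49, 5.79 and 8.25 (33.2-fold lower, log2 -4.84 ± 0.33, limma adjusted p = 4.9e-18). In the copper family MIR398, 2 of 2 loci tested fell at both lengths.

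MIR845b, the gene of the 22-nt microRNA above, which is known to match the primer-binding site of retrotransposons, gained 22-nt reads from 5.27, 9.17 and 8.36 to 269, 269 and 180 (31.5-fold, log2 4.81 ± 0.29, limma adjusted p = 3.2e-17). Its mean was 25.3 in Col-0 MS-N and 18.5 in dcl4-2 MS, and the combined change was 2.01 above additivity (adjusted p = 0.0045). MIR845a, singled out after its values were seen, rose at 21 nt from 3028, 3304 and 2789 to 32492, 23455 and 27732 (9.17-fold, log2 3.19 ± 0.25, limma adjusted p = 6.5e-16). Its mean was 3562 in Col-0 MS-N, while the dcl4-2 MS libraries spread from 1823 to 8258, and it was 2.7 ± 0.35 above additivity (adjusted p = 1.7e-06).

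MIR169 loci did not move together. At 22 nt MIR169g went from 44.8, 39.7 and 66.9 to 4.46, 0 and 0 (33.9-fold lower, log2 -4.83 ± 0.49, limma adjusted p = 2.1e-10; log2 -5.65 without dcl4-2 MS-N library 1) and MIR169b fell 11.3-fold. MIR169f, singled out after its values were seen, rose at 22 nt from 14, 10.2 and 9.41 to 173, 213 and 134 (15.5-fold, log2 3.83 ± 0.29, limma adjusted p = 2.0e-14). At 21 nt it rose 8.31-fold, and the medium step held 2.90 of the change of 3.06 on the log2 scale. Whether the reads gained at MIR169f were of the printed miR169f-5p, which other MIR169 loci share, is not known. The families MIR160 and MIR319 rose at all 3 loci each at both lengths on the authors' scale, and 1 locus of MIR160 at 21 nt, 2 of MIR319 at 21 nt and 1 of MIR319 at 22 nt were no longer called with microRNA reads set to a common sum. All 7 MIR166 loci, which may share reads, rose at both lengths, but in that scaling none passed at 21 nt (median -0.21) and 1 rose and 1 fell at 22 nt. MIR828, the gene of the microRNA that starts TAS4 siRNA production, had no read in Col-0 MS and 2.2, 8.1 and 8.25 in dcl4-2 MS-N at 21 nt.

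**Figure D4:**
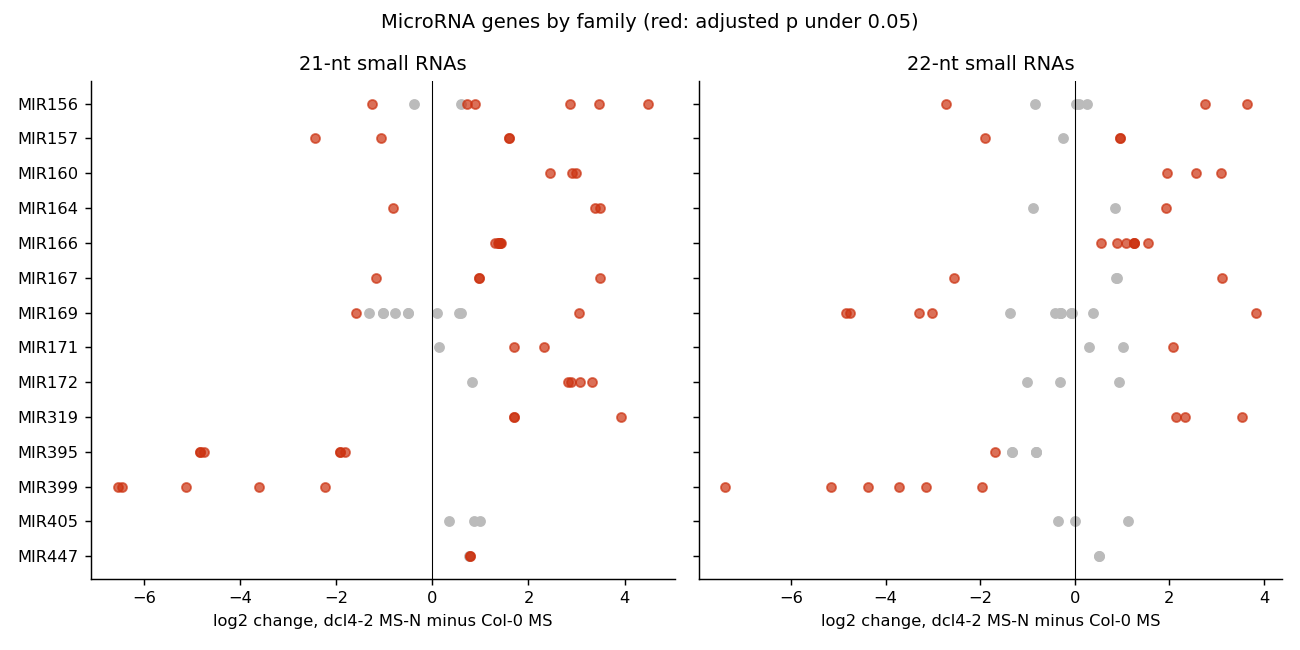
Log2 change (dcl4-2 MS-N minus Col-0 MS) of microRNA genes in families with 3 or more loci tested at 21 nt, at 21 nt (left) and 22 nt (right); red points have an adjusted p under 0.05. MIR399 (5 of 5 and 6 of 6 lower) and MIR395 lie on the left and MIR160 and MIR319 on the right. With microRNA reads set to a common sum the medians of MIR166 at 21 nt and of MIR156, MIR157, MIR167, MIR405 and MIR447 at both lengths turn negative (-1.33 to -0.21), and under TMM scaling those of MIR157 at 21 nt (-0.082) and of MIR156 (-0.26) and MIR405 (-0.30) at 22 nt do.

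Departures from additivity were few beside the calls of the combined change. At 21 nt 90 loci departed (0.464%), 78 above (0.402%) and 12 below (0.0618%) the sum of the single changes. At 22 nt 403 did (2%), 350 above (1.74%) and 53 below (0.263%). Of these, 35 and 164 were also called in the combined change. NIA2, APR1 and NF-YA2 ranked 1st to 3rd among the 162 of these at 22 nt whose libraries did not overlap between the groups. Those ranked next were AT1G47660 (mean 9.86 in Col-0 MS and 276 in dcl4-2 MS-N, 3.97 above additivity) and AT5G35070, a transcribed pseudogene (11.6 and 184, 3.84 above). RAP2.7, an AP2-type target of miR172, was 3.76 above. At the other end TCP2, a target of miR319, was 3.0 below, since its mean was 73.3 in dcl4-2 MS and 15.3 in dcl4-2 MS-N. The counts rest on the settings, falling to 1 locus at 21 nt and 8 at 22 nt without a variance trend, and to 3 at 21 nt without Col-0 MS library 3. The balance of above and below rests on the scale as well. The median departure over all loci tested was itself positive, 0.23 at 21 nt and 0.34 at 22 nt. Under TMM scaling 190 loci were above and 172 below at 22 nt.

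**Figure D5:**
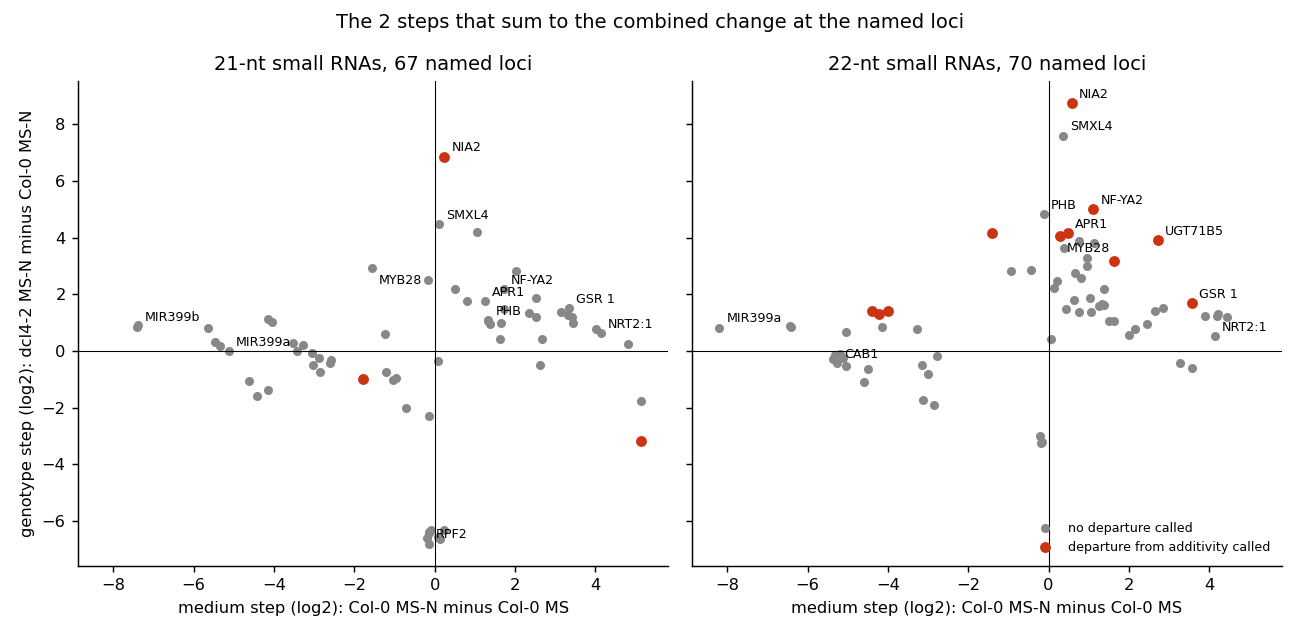
Medium step (x axis) against genotype step (y axis), both log2, for the named loci at 21 nt (left) and 22 nt (right); red points depart from additivity at an adjusted p under 0.05. NIA2 lies high near the vertical axis at both lengths, RPF2 low near it at 21 nt, and MIR399 and CAB1 to the left near the horizontal axis.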

How the data were processed

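Single-end small-RNA libraries were made by the submitters from total RNA and, per the submitters' processing notes, Bowtie 1.2.2, SAMtools 1.9 and build TAIR10 were used. For each of 32420 loci the authors deposited, at 21 and 22 nt separately, a normalised signal that the header calls TPM. It is 1 mean per group, and the values show that reads were first divided by a library's size factor. The deposited tables also give the authors' log2 changes, p-values and adjusted p-values, whose test is not given in the sources used here, and RPM (reads scaled to the library total) for 14 classes in each library. Counting rule and strand are not given in the sources used here. Library values were recovered as whole reads over the size factors, from means held to 15 significant digits. On simulated means the code split 3624 of 3628 and 3494 of 3494 right at 21 nt and 3792 of 3793 and 3486 of 3486 at 22 nt, with 0 wrong. Libraries of a group are numbered by size factor, which names them and pairs nothing, and precision is limited by the reads per library and by 3 libraries a group.

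Loci at 1 or more in at least 3 of the 12 libraries were fitted with limma 3.58.1 in R 4.3.3 (variance trend) on log2(value + 1) over all 4 groups, and called at a Benjamini-Hochberg adjusted p under 0.05. Fold changes are ratios of means, and log2 changes on this scale understate those of low loci. Additivity is the interaction term. On simulated data all 50 of 50 loci changed 8-fold were called at each length, 23 and 37 of 50 changed 4-fold, 0 and 3 of 50 changed 2-fold, and 6 and 9 unchanged loci. Classes were fitted on log2 RPM. An exact permutation test of 3 against 3 cannot go below 0.1. Alternatives were other pseudocounts (0.1 and 5), no filter, no trend, only 6 libraries, own code for TMM scaling, microRNA reads set to a common sum, and leaving out each library. Named loci were the 10 highest and 10 lowest called without overlap at each length, up to 4 called members of each list with the largest change, and DCL4, NIA1, NIA2 and SMXL3 to SMXL5. Loci that depart from additivity and are named for their rank, and any gene said to be singled out, were chosen after their values were seen. The members and gene lists were chosen with earlier results of these data known, so no list is independent support.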

Additional observations from a re-analysis of the deposited data

Results flagged for a closer look

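Each result here was marked because the effect of the medium differed between the genotypes, which is the limma interaction term at an adjusted p under 0.05, and no explanation was weighed. All values are log2 departures of the combined change from the sum of the medium change in Col-0 and the genotype change on MS.

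At 22 nt NIA2 (7.77), APR1 (4.95), NF-YA2 (4.44) and SMXL5 (3.52) lay above additivity, followed by GSR 1 (2.31), UGT71B5 (2.03) and MIR845b (2.01). MIR850 (1.69) and the chloroplast loci ATCG00270 (1.58) and ATCG00280 (1.52) were above it although their reads were lower than in Col-0 MS. MYB28 was below it (-2.20). At 21 nt NIA2 (7.22) and AT5G43740 (1.48) were above and AT1G03940 (-3.03) below. The departure of NIA2 passed in all 12 other settings at both lengths, and those of AT1G03940 and AT5G43740 at 21 nt failed in 10 of 12. At 22 nt the departure failed in 9 of 12 for MIR850, 7 for GSR 1, 3 for SMXL5 and MYB28, 2 for APR1 and UGT71B5, and 1 for NF-YA2, MIR845b, ATCG00270 and ATCG00280.

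Among the classes, at 21 nt tRNA (1.25), snoRNA (0.93), intergenic reads (0.88), 5′ UTR (0.51), 3′ UTR (0.51), exon (0.47) and tasiRNA (0.45) were above additivity. At 22 nt snoRNA (1.05), exon (1.03), tRNA (1.02), rRNA (0.86), 5′ UTR (0.85) and snRNA (0.67) were above it, and tasiRNA (-0.34) and transposable elements (-0.54) below. That is 15 of 28 class values (53.6%). In 5 to 7 of 8 other settings the departures of tasiRNA at both lengths, and at 22 nt those of snRNA and transposable elements, did not pass.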

How the results depend on the processing

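The number of loci called at 21 nt was 2232, and 1413 with a pseudocount of 0.1, 4859 with microRNA reads set to a common sum (281 higher, 4578 lower) and 756 higher against 1370 lower under TMM scaling. It ranged from 1488 to 1943 without 1 library. At 22 nt it was 2731, and 1799, 4178 (513 higher, 3665 lower) and 971 against 1551 in the same settings, and 1793 (without Col-0 MS library 1) to 2327 without 1 library. Loci departing from additivity numbered 90 at 21 nt, and 6 with a pseudocount of 0.1, 243 with a pseudocount of 5, 32 without a filter, 1 without a variance trend, 22 under TMM scaling, 20 with microRNA reads set to a common sum, and 3 to 55 without 1 library. At 22 nt they numbered 403, and 121 with a pseudocount of 0.1, 8 without a variance trend, 228 with microRNA reads set to a common sum, 190 above and 172 below under TMM scaling, and 175 to 389 without 1 library (175 without Col-0 MS library 2, 212 without Col-0 MS library 3). Of the 32 lists and lengths with a call, 17 kept their balance with microRNA reads set to a common sum. The cause was not tested in any of these.

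Class values called numbered 23, 18 scaled to the sum without microRNA and tasiRNA, and 19 to 22 without 1 replicate. Deviations of same-numbered replicates of the class table from their group means correlated at 0.13, 0.34 and -0.44. So few values, from deviations that sum to 0 within a group, cannot decide whether the numbers pair the libraries. With the replicate block 22 class values were called, and the departures of tasiRNA from additivity (0.45 at 21 nt and -0.34 at 22 nt) no longer passed. Without 1 library, log2 changes crossed 0 for transposable elements (-0.14 to 0.057) and promoters (-0.085 to 0.041) at 22 nt, both positive without Col-0 MS replicate 2, and for DCL4 (-0.68 to 0.11) and SMXL5 (-1.46 to 0.50) at 21 nt. With microRNA reads set to a common sum MYB28 at 21 nt (-0.025) and DCL4 at 22 nt (-0.52) changed sign. None but MYB28 was a called value. Each value of a named locus was compared once in each other setting. Of the other such comparisons, 1849 kept direction and call, 95 lost the call and 1 gained it. They repeat the same loci and are not independent. No paired analysis was possible at loci because the recovered libraries carry no replicate number. The edgeR alternatives on recovered reads were not run, so how the calls would stand under a count model is not known. An exact permutation test of classes cannot pass with 3 against 3. At 21 nt 0 of 50 loci changed 2-fold were called in simulation. The spread of the simulated reads was set and not estimated from these libraries, so this is not the limit of the real fit. In the real fit smaller changes were called at 21 nt, such as both MIR393 loci, the lower at a log2 change of 0.61.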
